A study of Mus musculus with 12 samples.

Results

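The genes described here were 32 genes of glycolysis and of the response to low oxygen, among 22471 features measured by RNA sequencing in primary mouse hepatocytes. They were selected by gene symbol, from a list drawn up when earlier results of all these libraries were known, so the calls made on them are a description of the list and no independent evidence about it. They fell into 3 classes: 18 glycolytic enzymes and the gene of glucose entry Slc2a1, 12 targets of the hypoxia-inducible factors (HIFs) that have no step in glycolysis, and the 2 HIF alpha subunits Hif1a and Epas1. All 32 symbols were found, in 33 features, since Aldoa has a second identifier (ENSMUSG00000114515) that stood at a count of 0 in each of the 12 libraries and was not tested. Each of the other 32 features passed the filter on low counts in every comparison.

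The study examined benzbromarone (BBR), a drug that lowers uric acid, in hepatocytes with and without oleic acid (OA), which these cells take up and store as lipid. The hepatocytes came from 6-week-old male C57BL/6J mice by collagenase perfusion and Percoll separation, and were exposed for 16 h. There were 4 groups of 3 libraries: control, OA at 0.2 mM, BBR at 15 µM, and both together (BBR+OA). OA was given as a complex with bovine serum albumin, and whether the groups without OA received albumin is not stated. The doses, the exposure time and the animals are taken from the methods of the study, since the labels give the tissue as liver and describe the OA groups as a high-fat diet by supplementation with the acid. The labels call the replicates biological, without saying whether a replicate was another mouse or another culture of the same preparation, so the p-values below measure the spread between labelled replicates, which may be technical.

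HIFs are transcription factors made of an alpha and a beta subunit. With oxygen present, the prolyl hydroxylases of the Egln family modify the alpha subunit, which is then bound by Vhl and degraded, while in low oxygen the alpha subunit accumulates and the factor binds short core motifs near its targets. Those targets include most steps of glycolysis and the prolyl hydroxylases themselves. Hepatocytes in the liver make glucose as well as breaking it down. They mainly use their own forms of the glycolytic proteins, such as Slc2a2 and Pklr. By contrast, Slc2a1, Hk1, Aldoa and Pkm are forms found in most other cells. The alpha subunits are regulated to a large part as proteins, which RNA sequencing does not measure.

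The sequences of 4 promoters are given because they belong to the members with the largest rise under BBR for which RefSeq (GRCm38.p6) has exactly 1 window, namely Egln3, Bnip3, P4ha2 and Pfkp. Each is the 250 bases before the transcript start, 5′ to 3′ on the strand of the gene. Capitals mark the HIF core motifs ACGTG and GCGTG on either strand, so that the reverse complements CACGT and CACGC are also in capitals, and overlapping matches, as in the palindrome CACGTG, count as 1 place.
Egln3, chr12:54203875-54204124, minus strand: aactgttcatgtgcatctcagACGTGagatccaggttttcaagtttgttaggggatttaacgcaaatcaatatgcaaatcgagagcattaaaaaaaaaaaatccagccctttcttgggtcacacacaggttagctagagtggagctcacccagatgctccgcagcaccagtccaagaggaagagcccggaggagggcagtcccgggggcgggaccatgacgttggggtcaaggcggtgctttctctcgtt
Bnip3, chr7:138909507-138909756, minus strand: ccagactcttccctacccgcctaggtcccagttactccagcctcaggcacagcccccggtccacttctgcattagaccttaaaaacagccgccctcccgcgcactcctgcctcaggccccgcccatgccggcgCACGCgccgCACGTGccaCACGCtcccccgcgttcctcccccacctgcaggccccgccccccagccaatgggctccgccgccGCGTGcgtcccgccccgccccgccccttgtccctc
P4ha2, chr11:54100674-54100923, plus strand: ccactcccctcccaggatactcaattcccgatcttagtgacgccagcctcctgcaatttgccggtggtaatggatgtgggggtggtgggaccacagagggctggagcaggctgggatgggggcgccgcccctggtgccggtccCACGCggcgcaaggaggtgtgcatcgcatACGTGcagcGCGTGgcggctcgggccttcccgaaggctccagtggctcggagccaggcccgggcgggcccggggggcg
Pfkp, chr13:6648772-6649021, minus strand: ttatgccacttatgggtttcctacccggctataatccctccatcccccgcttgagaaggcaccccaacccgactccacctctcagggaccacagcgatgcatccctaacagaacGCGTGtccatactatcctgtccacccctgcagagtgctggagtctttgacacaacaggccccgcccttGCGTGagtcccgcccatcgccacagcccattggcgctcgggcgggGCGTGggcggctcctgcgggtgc

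The core stood at 1 place in the Egln3 window, 229 bases before the start, at 4 places in the Bnip3 window, and at 3 places each in the windows of P4ha2 and Pfkp. The window of P4ha2 lies inside the gene as GENCODE release M21 draws it (chromosome 11, 54100095 to 54131665), outside its exons. The window of Bnip3 overlaps an annotated exon of its gene by 13 bases, and that of Pfkp does so by 6 bases. Windows were found for 29 of the 32 members, and none is given here for Bnip3l, Ndrg1 and Epas1. Over the 46 windows of those 29 members, 36 (78.3%) held a core, against 38.6% of all 32851 windows of 27025 genes. Members' windows were also richer in CpG, with a median of 14 per window against 6 over all windows, and the core motifs contain a CpG themselves. Among the glycolytic genes 24 of 30 windows (80.0%) held a core, and among the HIF targets 11 of 15 (73.3%). Some windows of the same gene overlap, as for Eno1, Aldoa and Pfkm, so the same place can count in more than 1 window. A match in these letters is a description of the sequence and was not measured as a binding site.

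The libraries held between 15485508 and 23668379 counts, and the members took 2.60% to 3.06% of them. Hepatocyte identity was clear from the RNA: the 8 hepatocyte markers summed to between 30828 and 39066 CPM (counts scaled to a common library size by the TMM method), with all 8 detected. Alb made up most of that sum. By the test described below, 3 of the 8 were higher and 3 lower with BBR than in control. The shares over all genes tested were 13.2% and 14.5%. The lower ones were Tat (7.71 to 5.57 CPM), Hnf4a (151 to 125 CPM) and Asgr1 (77.2 to 69.1 CPM). The markers of other liver cells were detected at low levels, with sums of 27.2 to 44.3 CPM for 9 Kupffer cell markers, 47.5 to 62.8 CPM for 6 endothelial markers and 19.1 to 26.2 CPM for 6 stellate cell markers. The defining marker Clec4f of Kupffer cells reached 2.11 CPM at most, Lrat of stellate cells 0.250 CPM, Stab2 of endothelial cells 18.5 CPM and Krt19 of cholangiocytes 14.5 CPM, and Lrat was at 0 in 4 libraries. Several of these values moved with the groups. The Kupffer cell sums hide opposite shifts with OA. Of the 9 markers 2 were higher and 6 lower with OA than in control by the same test, with log2 fold changes from -1.28 to 2.51. The mean levels of Marco and Adgre1 rose with OA, and those of Clec4f and Cd5l fell. The 5 cholangiocyte markers, most of whose sum is Spp1, totalled 592 to 720 CPM in control, 243 to 273 CPM with OA, 390 to 422 CPM with BBR and 199 to 240 CPM with BBR+OA. The fall of that sum with BBR was that of Spp1 alone, since Krt19 rose from 6.90 to 11.2 CPM, Epcam from 1.85 to 3.52 CPM and Sox9 from 32.3 to 48.8 CPM, while Krt7 was too low to be tested. The endothelial sum was 51.1 to 54.0 CPM in control and 57.9 to 62.8 CPM with BBR. That rise was not shared by all 6 markers. Pecam1, Kdr and Cdh5 were higher by the same test, and none was lower. The defining marker Stab2 (log2 -0.05), Lyve1 (log2 -0.52) and Clec4g (log2 -0.81) had negative values that did not pass. Mitochondrial transcripts took 5.5% to 6.07% of the counts in control and 6.34% to 6.89% with BBR. The part of these shifts in the differences below was not tested, and in bulk RNA fewer cells of a type and less RNA per cell cannot be told apart.

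**Figure D1:**
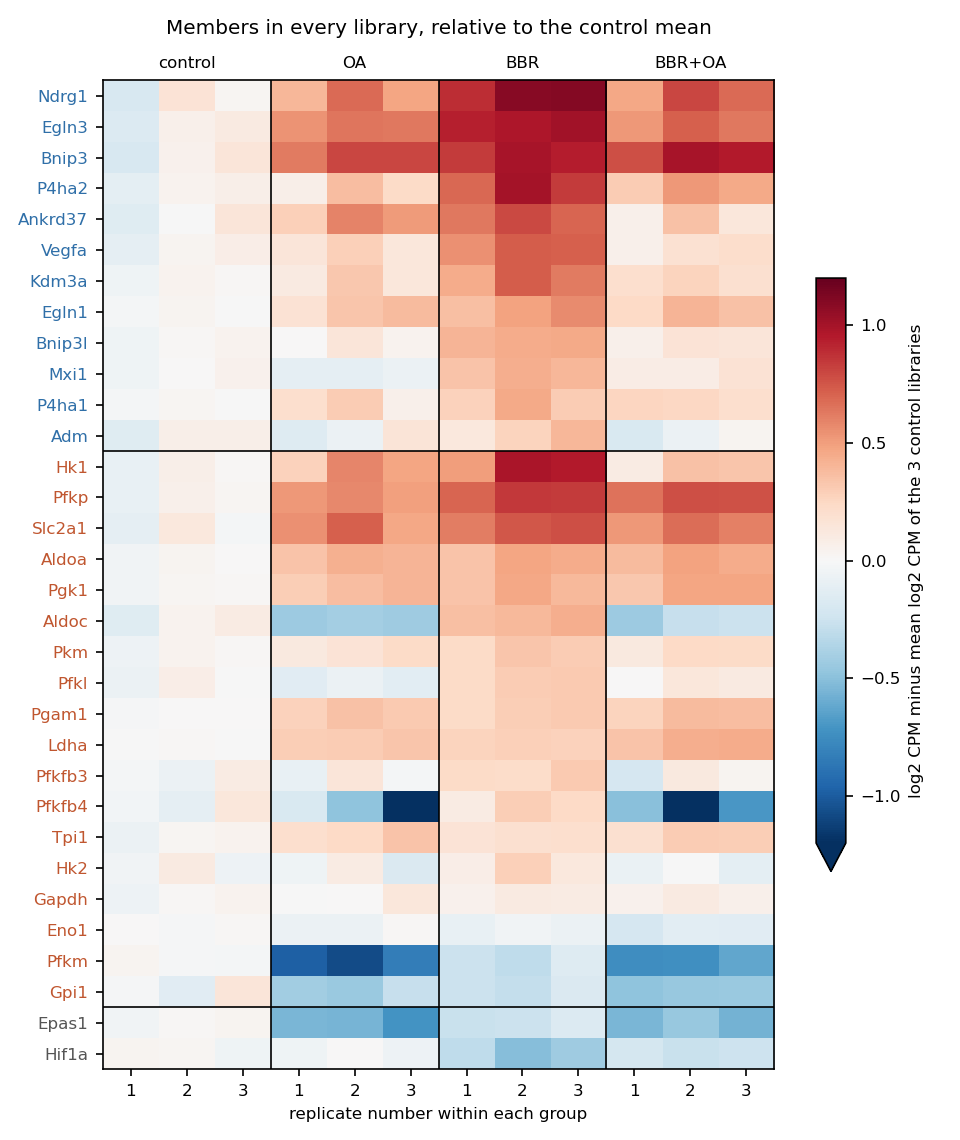
Each row is 1 of the 32 members and each column 1 library, 3 replicates a group, and the colour gives log2 CPM minus the mean log2 CPM of the 3 control libraries. Rows are grouped as HIF targets, glycolysis and HIF alpha subunits and ordered by the BBR effect. The BBR columns are the reddest for most HIF targets, and the BBR+OA columns lie close to the OA columns.

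BBR without OA was set against control to ask how the drug acts on hepatocytes with no added lipid. Of the 32 members, 24 were higher with BBR, 4 were lower and 4 did not pass the test (edgeR's quasi-likelihood test with Benjamini-Hochberg adjustment over all genes, adjusted p under 0.05). Over all 12555 genes tested, 13.2% were higher and 14.5% lower. All 12 HIF targets were higher, with log2 fold changes from 0.27 to 1.03 and a median of 0.64. Of the 18 glycolytic genes, 12 were higher and 2 lower, over a range from -0.23 to 0.83 with a median of 0.29, and both HIF alpha subunits were lower. The median over all genes was near zero, at -0.00085, and the median size of a change regardless of sign was 0.14. Changes of at least 1.5-fold were seen in 10 members, 7 of them HIF targets (Ndrg1, Egln3, Bnip3, P4ha2, Ankrd37, Vegfa and Kdm3a) and 3 of them glycolytic (Hk1, Pfkp and Slc2a1). None of the 28 members called had a BBR library within the range of the control libraries. With 3 libraries a group a call nearly requires this, and the count was not made over all genes.

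Egln3, one of the prolyl hydroxylases that mark HIF alpha for degradation and itself a HIF target (chromosome 12, 54178981 to 54203860), stood at 103, 121 and 124 CPM in the control libraries and at 221, 227 and 233 CPM with BBR. With OA it was at 168, 180 and 180 CPM, and with BBR+OA at 166, 190 and 179 CPM. The BBR libraries lay above all others, while the OA and BBR+OA libraries overlapped and both lay above control. The fold change with BBR was 1.97 (log2 0.97 ± 0.06 SE, adjusted p = 1.68e-08). Egln1, the hydroxylase that is the main oxygen sensor in most cells, rose less, from 87.0 ± 1.93 to 120 ± 8.56 CPM (mean ± SD of 3 libraries), a log2 difference of 0.48.

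Ndrg1, a stress-responsive cytoplasmic protein long used as a sign of hypoxia (chromosome 15, 66929318 to 66969640), had the largest rise with BBR. It measured 207, 265 and 239 CPM in control and 435, 503 and 507 CPM with BBR, a 2.04-fold difference (log2 1.03 ± 0.08, adjusted p = 9.61e-08). With OA it was at 311, 377 and 328 CPM and with BBR+OA at 325, 411 and 378 CPM. Again the BBR libraries were the highest, and the OA and BBR+OA libraries overlapped.

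Bnip3, a receptor that directs mitochondria to autophagy (chromosome 7, 138890836 to 138909519), followed another pattern. Its control libraries stood at 306, 361 and 386 CPM, the OA libraries at 539, 611 and 609 CPM, the BBR libraries at 626, 693 and 671 CPM and the BBR+OA libraries at 598, 693 and 674 CPM. All 9 treated libraries lay above control, and those with BBR+OA overlapped those with BBR as well as those with OA. The rise with BBR was 1.90-fold (log2 0.93 ± 0.07, adjusted p = 1.00e-07). Its relative Bnip3l, which also serves mitochondrial autophagy, rose from 200 ± 7.13 to 270 ± 3.88 CPM with BBR (log2 0.44).

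P4ha2, the catalytic subunit of a collagen prolyl hydroxylase, stood at 75.7, 84.7 and 86.0 CPM in control and at 132, 164 and 147 CPM with BBR. The rise was 1.80-fold (log2 0.85 ± 0.07, adjusted p = 2.56e-07). With OA it measured 85.9, 106 and 96.0 CPM and with BBR+OA 101, 118 and 112 CPM, so that the OA libraries overlapped those of control and those of BBR+OA. P4ha1, the related subunit, rose from 26.3 ± 0.492 to 33.5 ± 2.26 CPM with BBR (log2 0.35).

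Ankrd37 encodes an ankyrin-repeat protein induced by HIF. It stood at 15.2, 16.7 and 18.5 CPM in control, 20.4, 25.3 and 23.8 CPM with OA, 26.1, 29.0 and 27.2 CPM with BBR, and 17.4, 21.3 and 18.5 CPM with BBR+OA. The BBR libraries were the highest, and the BBR+OA libraries overlapped both control and OA. The rise with BBR was 1.63-fold (log2 0.71 ± 0.08, adjusted p = 6.41e-06).

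Vegfa, the growth factor that drives blood vessel formation (chromosome 17, 46016993 to 46032369), stood at 184, 203 and 209 CPM in control and at 291, 328 and 327 CPM with BBR, a 1.60-fold rise (log2 0.67 ± 0.06, adjusted p = 4.18e-07). With OA it was at 219, 243 and 218 CPM and with BBR+OA at 206, 225 and 230 CPM. The BBR libraries stood clear of the other groups. Of the remaining targets, the histone lysine demethylase Kdm3a rose from 72.5 ± 2.26 to 110 ± 10.5 CPM (log2 0.61), the Myc antagonist Mxi1 from 43.1 ± 1.62 to 56.7 ± 1.82 CPM (log2 0.40), and the vasodilator peptide gene Adm from 48.5 ± 4.01 to 58.3 ± 5.5 CPM (log2 0.27, adjusted p = 0.00998). Adm missed the threshold when control replicate 1 was left out (adjusted p = 0.0543) or BBR replicate 3 was (adjusted p = 0.0665).

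**Figure D2:**
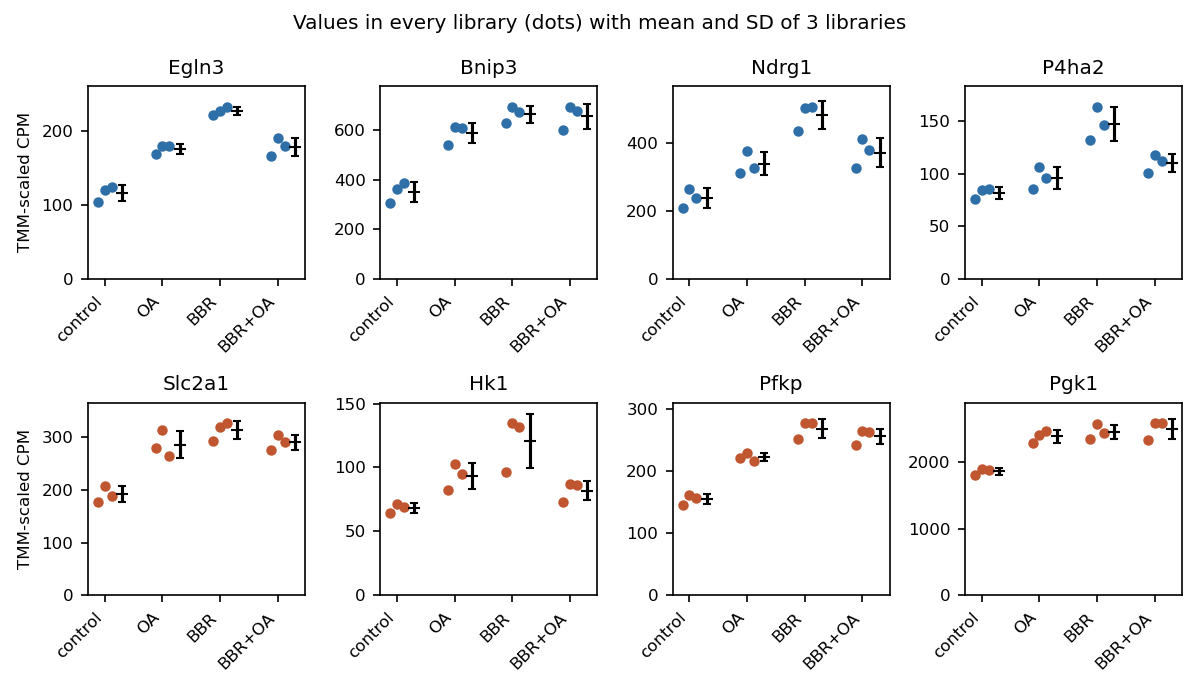
Dots give the TMM-scaled CPM of each library for 4 HIF targets (upper row) and 4 glycolytic genes (lower row), with the mean and SD of the 3 libraries of a group as bars beside them, and every vertical axis starts at 0. Egln3, Ndrg1 and P4ha2 are highest with BBR alone, while Bnip3 and Pgk1 reach about the same level in all 3 treated groups.

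The glycolytic genes that rose most with BBR stand at its entry and at its committed step. Slc2a1, a glucose transporter of the plasma membrane (chromosome 4, 119108711 to 119137983), stood at 178, 209 and 189 CPM in control and at 294, 321 and 327 CPM with BBR, a 1.64-fold rise (log2 0.72 ± 0.06, adjusted p = 2.58e-07). With OA it was at 280, 315 and 264 CPM and with BBR+OA at 275, 305 and 292 CPM. All 9 treated libraries lay above control, and the 3 treated groups overlapped each other.

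Hk1, a hexokinase that traps glucose in the cell as its phosphate (chromosome 10, 62268855 to 62379908), stood at 64.2, 71.4 and 68.9 CPM in control and at 96.5, 135 and 132 CPM with BBR, a 1.78-fold rise (log2 0.83 ± 0.09, adjusted p = 5.73e-06). With OA it measured 82.4, 103 and 94.5 CPM and with BBR+OA 73.1, 86.7 and 86.0 CPM. BBR replicate 1 lay within the range of the OA libraries, and the other 2 BBR libraries stood above every other library. Hk2, another hexokinase, measured 43.2 ± 2.75 CPM in control and 48.4 ± 3.55 CPM with BBR, with overlapping libraries (log2 0.17 ± 0.07, adjusted p = 0.0638).

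Phosphofructokinase carries out the committed step, and its 3 genes differed. Pfkp, the platelet form (chromosome 13, 6579768 to 6648777), stood at 146, 161 and 157 CPM in control and at 251, 278 and 277 CPM with BBR (1.75-fold, log2 0.81 ± 0.05, adjusted p = 3.08e-08). It measured 221, 230 and 217 CPM with OA and 242, 264 and 263 CPM with BBR+OA, so that each of the 3 treated groups lay above control and BBR+OA lay above OA. Pfkl, the liver form, stood at 261, 290 and 273 CPM in control, 250, 262 and 252 CPM with OA, 321, 339 and 340 CPM with BBR, and 275, 301 and 296 CPM with BBR+OA. It rose 1.22-fold with BBR (log2 0.29 ± 0.05, adjusted p = 0.000383).

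Pfkm, the muscle form, moved in the other direction. It stood at 18.4, 17.9 and 17.7 CPM in control, 9.13, 8.56 and 10.2 CPM with OA, 15.1, 14.6 and 16.2 CPM with BBR, and 10.7, 10.8 and 11.7 CPM with BBR+OA. All 4 groups were separate from each other, control being the highest and OA the lowest. Its fall with BBR (log2 -0.23 ± 0.08, adjusted p = 0.0351) was the least secure of the calls in this comparison, with an adjusted p of 0.123 in DESeq2 and above the threshold when any of 5 of the 6 libraries was left out (0.0585 to 0.107).

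Of the kinase-phosphatases that set the level of the activator of phosphofructokinase, Pfkfb3 rose from 39.9 ± 2.47 to 47.6 ± 1.66 CPM with BBR (log2 0.26, adjusted p = 0.00348). Pfkfb4 was at 2.45, 2.33 and 2.74 CPM in control, 2.21, 1.79 and 1.02 CPM with OA, 2.67, 3.07 and 2.95 CPM with BBR and 1.77, 1.06 and 1.55 CPM with BBR+OA. Its smallest count in a library was 20. Its control and BBR libraries overlapped, while those with BBR+OA lay below both.

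Aldoc, an aldolase first known from brain, stood at 21.1, 24 and 25 CPM in control and 29.9, 30.5 and 31.6 CPM with BBR (log2 0.40 ± 0.07, adjusted p = 0.000546). It was at 17.2, 17.6 and 17.4 CPM with OA and 17.2, 19.3 and 19.6 CPM with BBR+OA, so that both groups with OA lay below control. Aldoa, the common aldolase, went from 741 ± 20.3 to 993 ± 47.9 CPM with BBR (log2 0.43), and to about the same level in the other treated groups (972 ± 29.2 CPM with OA and 1005 ± 36.3 CPM with BBR+OA).

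The abundant enzymes of lower glycolysis moved less. Phosphoglycerate kinase Pgk1 rose from 1857 ± 46.5 to 2448 ± 107 CPM with BBR (log2 0.41), and the log2 fold changes of Pgam1, Pkm, Ldha and Tpi1 were 0.29, 0.30, 0.28 and 0.19, all past the threshold. Gapdh, at 9347 ± 342 CPM in control and 9921 ± 205 CPM with BBR, did not pass the test (log2 0.09, adjusted p = 0.232), nor did Eno1 (log2 -0.06, adjusted p = 0.420). Gpi1, which interconverts the hexose phosphates at the second step, fell from 992 ± 95.9 to 839 ± 33.9 CPM (log2 -0.23, adjusted p = 0.01). The deposited counts of Gapdh, Eno1 and Pfkp were fractional in all 12 libraries, as arises when reads are divided among near-identical sequences, so these 3 values may include or lose reads of copies. Fractional counts were also seen for Mxi1 in 8 libraries, for Hif1a in 2, and for Gpi1 and Ankrd37 in 1 each.

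Both HIF alpha subunits were lower with BBR than in control. Hif1a (chromosome 12, 73901375 to 73947530) stood at 134, 133 and 126 CPM in control and 106, 91.9 and 97.4 CPM with BBR, with no overlap (log2 -0.40 ± 0.05, adjusted p = 2.98e-05). It was at 126, 131 and 125 CPM with OA and 113, 109 and 110 CPM with BBR+OA, so that both groups with BBR lay below both groups without it. Epas1, the gene of the second alpha subunit (chromosome 17, 86753700 to 86833410), stood at 56.9, 59.0 and 59.9 CPM in control, 40.1, 39.8 and 35.7 CPM with OA, 48.6, 49.0 and 52.3 CPM with BBR, and 40.1, 42.7 and 39.5 CPM with BBR+OA. It fell with BBR (log2 -0.22 ± 0.05, adjusted p = 0.00445), and both groups with OA lay lower still.

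OA alone was compared with control to see what the fatty acid did without the drug, and these calls rest on the same 3 control libraries as those for BBR. With OA 18 of the 32 members were higher and 4 lower, against 21.3% and 21.5% of the 12418 genes tested. The 9 HIF targets that rose had log2 fold changes up to 0.74, and the median of all 12 was 0.21. Adm, Bnip3l and Mxi1 did not pass the test, with log2 values of -0.02, 0.07 and -0.09. Of the glycolytic genes 9 rose and 3 fell, with a median of 0.11. The largest changes among the members called were a fall of Pfkm (log2 -0.95 ± 0.09, adjusted p = 1.19e-06), rises of Bnip3 (log2 0.74 ± 0.08, 1.67-fold, adjusted p = 2.63e-06) and Egln3 (log2 0.60 ± 0.06, adjusted p = 3.69e-06), a fall of Epas1 (log2 -0.60 ± 0.06, adjusted p = 1.97e-06) and a rise of Slc2a1 (log2 0.58 ± 0.07, adjusted p = 1.15e-05).

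Of the enzymes of lower glycolysis, Ldha and Pgam1 both rose with OA by a log2 of 0.32, Pgk1 by 0.36 and Tpi1 by 0.27, and of the HIF targets Vegfa and Kdm3a each rose by 0.19. Aldoc and Gpi1 fell, by log2 values of -0.42 and -0.38. The groups did not overlap for 23 of the 32 members. That count was not made over all genes, so it cannot be read as particular to the members. P4ha2 was called although its groups overlapped (log2 0.23, adjusted p = 0.0180). The smaller calls depended on the scaling and on single libraries. Without control replicate 1, which was the lowest control library for 25 of the 32 members, 13 members were higher, since Pkm, Vegfa, P4ha1, P4ha2 and Kdm3a no longer passed. With upper quartile scaling the split of all genes turned from 2643 higher and 2668 lower to 2077 higher and 3216 lower, and the HIF targets called higher went from 9 to 5, with a median log2 fold change of 0.17.

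BBR was then examined in the presence of OA, by BBR+OA against OA, a comparison that shares no library with BBR against control. Of the 32 members 3 were higher and 1 was lower, where 1.95% of the 12278 genes tested were higher and 2.63% lower. Log2 fold changes ran from -0.29 to 0.25, with a median of 0.04 for the HIF targets and 0.02 for the glycolytic genes. The members called were Mxi1 (log2 0.21 ± 0.06, adjusted p = 0.0427), Pfkp (log2 0.20 ± 0.05, adjusted p = 0.0316), Pfkl (log2 0.19 ± 0.05, adjusted p = 0.0398) and Hif1a (log2 -0.21 ± 0.05, adjusted p = 0.0207), and no member changed by 1.5-fold. Mxi1 stood at 40.0, 40.0 and 40.9 CPM with OA and at 46.0, 45.9 and 48.8 CPM with BBR+OA, without overlap, as it had stood at 41.5, 43.1 and 44.7 CPM in control and 54.8, 58.4 and 56.8 CPM with BBR.

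These 4 calls were close to the threshold. None of them held when replicate 2 of either group or BBR+OA replicate 3 was left out, and without OA replicate 1 the count was 0 higher and 3 lower (Hif1a, Hk1 and Ankrd37). The SE of the log2 fold change was 0.05 for Egln3, whose value was 0.02, and 0.06 for Slc2a1, also at 0.02. Egln3, Slc2a1, Vegfa, Kdm3a and Egln1 lay between log2 values of -0.04 and 0.04. Farther from zero without passing the test were Pfkm at 0.25 (adjusted p = 0.199), P4ha2 at 0.20 (0.144), Bnip3 at 0.16 (0.178), Ndrg1 at 0.13 (0.410), Hk1 and Pfkfb4 both at -0.19 (0.201 and 0.797) and Ankrd37 at -0.29 (0.105).

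**Figure D3:**
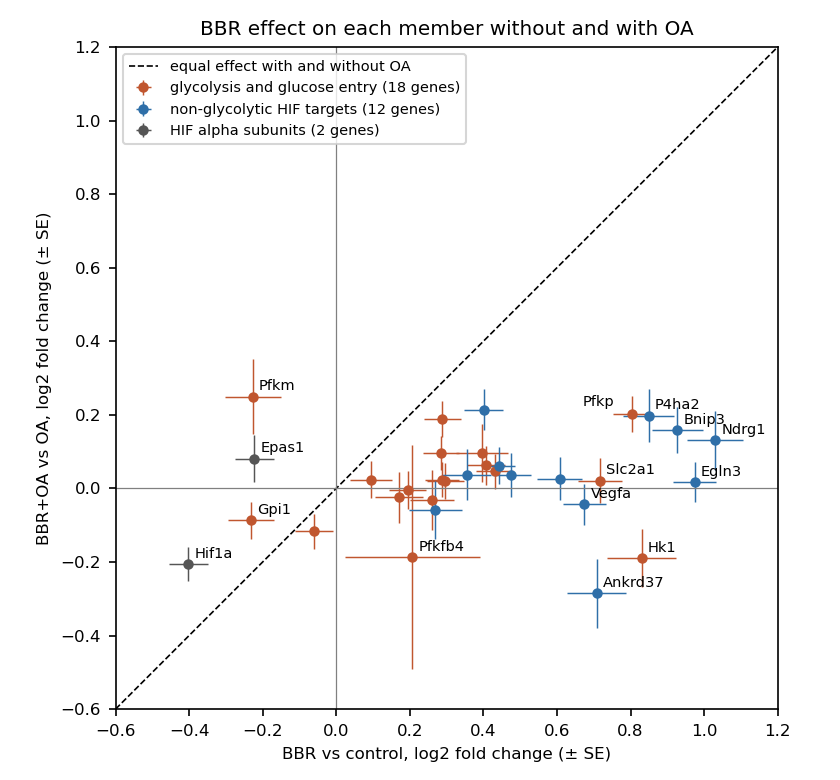
Each point is 1 of the 32 members, with its log2 fold change in BBR against control on the horizontal axis and in BBR+OA against OA on the vertical axis, and bars give the SE. The dashed line marks an equal effect with and without OA. Most HIF targets and glycolytic genes lie to the right of it and close to zero on the vertical axis, while Pfkm, Gpi1, Hif1a and Epas1 lie to its left.

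How far the BBR effect depended on OA was tested as an interaction term in a fit of the 12 libraries together. The term was negative and past the threshold for 17 members, meaning a smaller BBR effect with OA than without, and positive for 2, where 5.31% and 6.87% of the 12742 genes tested were called in those directions. All 12 HIF targets had negative values, from -0.98 to -0.18 with a median of -0.61, and 10 passed. Of the 18 glycolytic genes 7 passed with a negative value and 1 with a positive one, and the median was -0.26. The most negative were Hk1 (log2 -1.01 ± 0.15, adjusted p = 0.000189), Ankrd37 (-0.98 ± 0.13, adjusted p = 9.72e-05), Egln3 (-0.95 ± 0.09, adjusted p = 4.63e-06) and Ndrg1 (-0.89 ± 0.13, adjusted p = 0.000211). The positive ones were Pfkm (0.49 ± 0.12, adjusted p = 0.0101) and Epas1 (0.31 ± 0.08, adjusted p = 0.0145).

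The 2 HIF targets that missed the threshold were Mxi1 (-0.18, adjusted p = 0.125) and Adm (-0.32, adjusted p = 0.0929). Among the glycolytic genes Pfkl did not pass either (-0.09 ± 0.07, adjusted p = 0.469), and Gapdh and Eno1, which had not passed in either comparison, gave -0.06 and -0.05. The call for P4ha1 (-0.31, adjusted p = 0.0424) was lost when any of 9 libraries was left out. The call for Epas1 was lost without BBR+OA replicate 2 (adjusted p = 0.0619), which left Pfkm as the only positive member, and Hif1a joined the 2 positive members without control replicate 3 (0.24, adjusted p = 0.0457) or without BBR replicate 1 (0.26, adjusted p = 0.0147).

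OA was last examined in the presence of BBR, by BBR+OA against BBR, which takes up libraries already used above. Here 18 members were lower and 2 higher, against 18.8% and 20.1% of the 12416 genes tested. Of the HIF targets 9 were lower and none higher, with a median log2 fold change of -0.35, where OA alone had raised 9 of the 12 and lowered none. These were not all the same genes. Adm, Bnip3l and Mxi1 were lower here but had not passed with OA alone. Bnip3, Egln1 and P4ha1 had risen with OA alone but were not called here. Of the glycolytic genes 8 were lower and 1 higher, with a median of -0.11. Among those 8 Hk1 had risen with OA alone, Pfkm, Aldoc and Gpi1 had fallen with OA alone as well, and Hk2, Pfkl, Pfkfb3 and Pfkfb4 had not passed there. Epas1 was lower in both comparisons. The largest falls were those of Pfkfb4 (log2 -0.99 ± 0.23, adjusted p = 0.00348), Aldoc (-0.72 ± 0.07, adjusted p = 1.66e-06), Hk1 (-0.56 ± 0.10, adjusted p = 0.000578), Ankrd37 (-0.53 ± 0.08, adjusted p = 0.000141) and Vegfa (-0.52 ± 0.06, adjusted p = 4.75e-06). The HIF targets that did not pass were Bnip3, Egln1 and P4ha1, with log2 values of -0.02, -0.14 and -0.12.

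Most abundant enzymes changed little in that comparison: Aldoa, Pgk1, Pgam1 and Tpi1 had log2 values between 0.01 and 0.07 and did not pass. The 2 members called higher were Ldha (log2 0.13, adjusted p = 0.0305) and Hif1a (log2 0.16, adjusted p = 0.0192). At least 1 of them was lost when any of the 6 libraries was left out, both without BBR replicate 2 or BBR replicate 3, and both with upper quartile scaling. With that scaling the split of all genes went from 2496 higher and 2330 lower to 1976 higher and 2870 lower.

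The classes can also be followed as a mean level per library, taken as log2(CPM + 1) averaged over the members and set against the control mean. For the HIF targets this level was 0.28 ± 0.083 with OA, 0.63 ± 0.083 with BBR and 0.32 ± 0.078 with BBR+OA (SD, n = 3), where the control libraries had an SD of 0.090. For the glycolytic genes it was 0.063 ± 0.029, 0.27 ± 0.055 and 0.090 ± 0.052, with a control SD of 0.041. In both classes the 3 BBR libraries were the highest of the 12. The libraries of OA and BBR+OA overlapped in both, and for the glycolytic genes some of them lay within 0.01 of the highest control library. Replicate 1 had the lowest class level in every group for both classes. It was the lowest of its group for all 12 HIF targets in control and with BBR, for 10 of 12 with OA and for 9 of 12 with BBR+OA.

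Levels of different genes were compared on the deposited FPKM scale, which divides by transcript length. In control the glycolytic members ran from Gapdh at 6726 FPKM, Eno1 at 2431 FPKM and Ldha at 1600 FPKM down to Hk2 at 9.26 FPKM, Pfkm at 6.34 FPKM and Pfkfb4 at 0.73 FPKM. The HIF targets ran from Bnip3 at 306 FPKM, Ndrg1 at 84.2 FPKM and Vegfa at 75.2 FPKM down to P4ha1 at 8.86 FPKM and Mxi1 at 8.61 FPKM. Gapdh and Eno1, the most abundant members, were thus among the 4 that did not pass in BBR against control.

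The makeup of enzyme families, as shares of the summed FPKM of their genes, moved with treatment as well. Slc2a1 made up 84.3% ± 3.34 of the FPKM of Slc2a1 and Slc2a2 in control, 89.6% ± 3.74 with OA, 97.8% ± 0.504 with BBR and 93.7% ± 0.396 with BBR+OA. Pkm held 47.4% ± 2.90 of the pyruvate kinases in control and 60.7% ± 3.28 with BBR. Within the phosphofructokinases the share of Pfkp was 33.5% ± 0.532 in control and highest with OA, at 45.7% ± 0.159. The HIF alpha subunits shifted the other way round between the treatments, Hif1a holding 72.3% ± 1.14 in control, 79.5% ± 0.651 with OA and 69.8% ± 2.15 with BBR. The shares of Slc2a1 and Pkm were thus highest with BBR alone, and none of these shares was tested. Both genes of each pair moved between control and BBR. Slc2a1 rose from 60.8 to 98.4 FPKM while Slc2a2 fell from 11.3 to 2.19 FPKM. Pkm rose from 480 to 583 FPKM while Pklr fell from 536 to 380 FPKM.

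**Figure D4:**
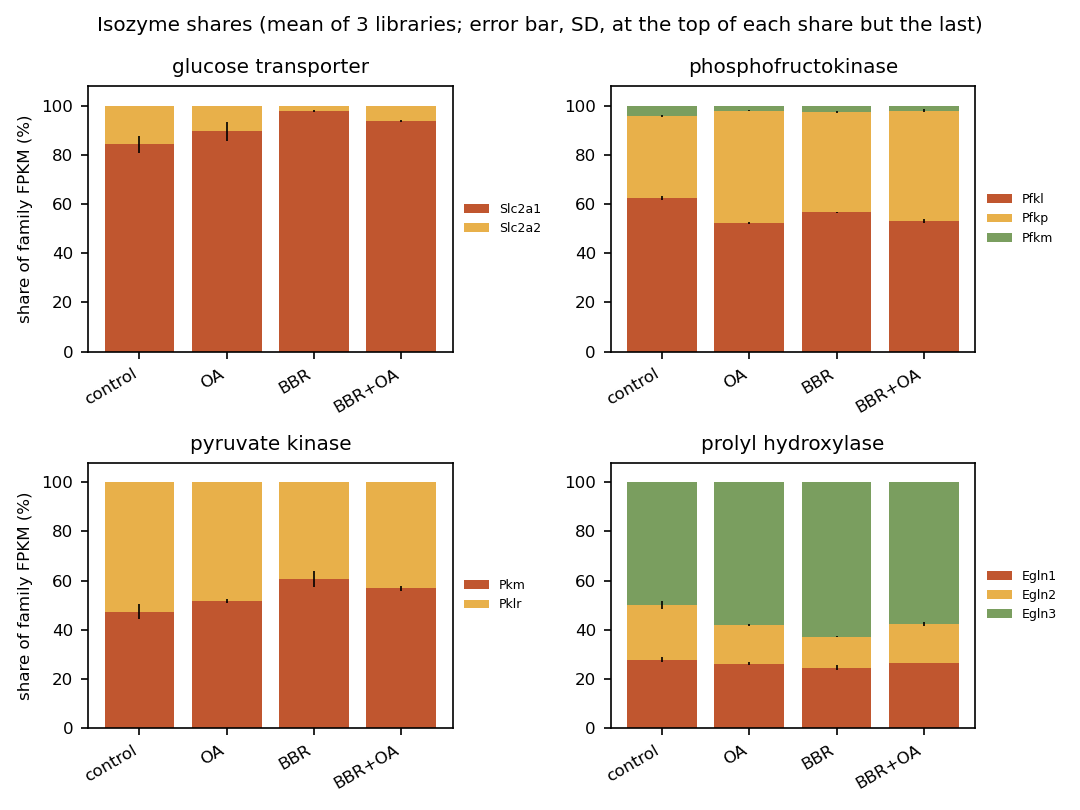
Stacked bars give the mean share in percent of the summed FPKM of each family in the 4 groups, with the SD over 3 libraries as error bars. The share of Slc2a1 and of Pkm is larger in every treated group than in control and largest with BBR.

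Genes of the same pathways outside the 32 were counted from separate lists. These lists were also chosen with earlier results of these data known, so their counts are a description and no independent evidence. Of 45 other HIF pathway genes, 37 were tested in BBR against control, and 21 (56.8%) were higher and 3 (8.11%) lower, against 13.2% and 14.5% of all genes. For BBR+OA against OA 5 (13.5%) were higher and 1 (2.70%) lower, against 1.95% and 2.63% of all genes. For OA against control 21 (56.8%) were higher and 6 (16.2%) lower, against 21.3% and 21.5%, and for BBR+OA against BBR 10 (27.0%) were higher and 13 (35.1%) lower, against 20.1% and 18.8%. Hilpda, a lipid droplet protein that inhibits triglyceride breakdown and is induced by HIF, had the largest rise of them with BBR, from 34.0 CPM in control to 110 CPM (log2 1.70 ± 0.07, adjusted p = 1.86e-10). It was at 64.3 CPM with OA and 82.9 CPM with BBR+OA, and here BBR still raised it in the presence of OA (log2 0.36, adjusted p = 0.000566). The paper treats Hilpda as a target of the receptor PPARγ. In its obese db/db mice, liver knockdown of PPARγ reduced the rise of such targets with BBR. In its primary hepatocytes, GW9662, which inhibits PPARγ, also lessened the rise of PPARγ targets with BBR. Angptl4, an inhibitor of lipoprotein lipase, rose with BBR+OA against OA as well (log2 0.44, adjusted p = 0.000204). Which factor drove these rises was not tested in these libraries. Lox, a collagen cross-linking enzyme, rose with OA from 1.11 to 5.02 CPM (log2 2.15, adjusted p = 3.42e-06), and Edn1, a vasoconstrictor peptide gene, was higher in BBR+OA than in BBR (log2 1.56, adjusted p = 2.93e-07).

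The other glycolysis genes include the liver's own forms. Of 20 such genes 15 were tested in BBR against control, and 1 (6.67%) was higher and 5 (33.3%) lower, against 13.2% and 14.5% of all genes. Slc2a2, the glucose transporter of hepatocytes, fell from 62.2 CPM to 12.1 CPM with BBR (log2 -2.35 ± 0.15, adjusted p = 2.72e-08), and with BBR+OA against OA it fell from 57.4 to 34.2 CPM (log2 -0.75, adjusted p = 0.0178). The interaction term for Slc2a2 was 1.61 (adjusted p = 0.000922). It was higher with BBR+OA than with BBR (log2 1.49, adjusted p = 8.83e-07). Hkdc1, a further hexokinase, was lower with OA (log2 -1.17, adjusted p = 0.000138) and lower with BBR+OA than with BBR (log2 -1.72, adjusted p = 2.63e-05). With OA against control 3 (20%) of these genes were higher and 4 (26.7%) lower, shares near the 21.3% and 21.5% of all genes. With BBR+OA against OA none was higher and 2 (13.3%) were lower, against 1.95% and 2.63%, and with BBR+OA against BBR 6 (40.0%) were higher and 1 (6.67%) lower, against 20.1% and 18.8%.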

How the data were processed

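RNA sequencing of polyadenylated RNA was analysed in 12 libraries, grouped by the sample titles. For each library the authors deposited 1 table with estimated counts and FPKM values for 22471 features. The submitters' processing notes name mm10; the aligner, the counting program and the use of strand are not given in the sources used here. Estimated counts were rounded to whole numbers. FPKM values were used, untested, only for levels between genes and for shares within families. Each comparison was fitted on its 6 libraries in edgeR 4.0.16 (R 4.3.3) with filterByExpr (minimum count 10), TMM scaling and the quasi-likelihood F test, adjusted by Benjamini-Hochberg over all genes tested and called at 0.05. The interaction was fitted on all 12 libraries. Standard errors were derived from the F statistic. The fits were tested on simulated data. A count of 0 allows up to 3 counts, 0.127 to 0.194 CPM, for counting error only. Gene positions are from GENCODE M21 (GRCm38), and no column of values was left unused.

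The 32 members, their classes, the pathway lists and the markers were chosen with earlier results of these data known. Values in every library were given for members that were among the 5 largest changes called in any comparison of 2 groups, and other pathway genes were named where they were among the 3 largest called and their higher group averaged 5 CPM or more; some of these are not reported here. Other members were given by group means, ranges and counts. The alternatives were scaling by RLE or upper quartile, DESeq2 1.42.0, no filter, a single fit of all libraries, the replicate number as a block, and leaving out each library.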

Additional observations from a re-analysis of the deposited data

Results flagged for a closer look

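For 19 members the effect of BBR differed between hepatocytes with and without OA, by the interaction of BBR and OA tested on all 12 libraries (edgeR, adjusted p under 0.05). The term was negative for 17 and positive for 2 of the 32 members, against 5.31% and 6.87% of the 12742 genes tested. The values are log2 fold changes with OA minus those without OA. Among the HIF targets they were -0.43 for Egln1, -0.95 for Egln3, -0.76 for Bnip3, -0.37 for Bnip3l, -0.98 for Ankrd37, -0.71 for Vegfa, -0.89 for Ndrg1, -0.31 for P4ha1, -0.64 for P4ha2 and -0.57 for Kdm3a. Among the genes of glycolysis and glucose entry they were -0.69 for Slc2a1, -1.01 for Hk1, -0.59 for Pfkp, -0.37 for Aldoa, -0.33 for Pgk1, -0.25 for Pgam1 and -0.27 for Pkm, and 0.49 for Pfkm. Of the HIF alpha subunits Epas1 gave 0.31. The call for P4ha1 was lost without any of 9 libraries, that for Pkm without BBR replicate 2 and that for Epas1 without BBR+OA replicate 2.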

How the results depend on the processing

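The counts of members called in BBR against control stayed within 1.5 times under RLE scaling, upper quartile scaling, DESeq2, no filter, 1 fit of all libraries and each library left out, where they ranged from 23 to 25 higher and from 3 to 4 lower. No value of a member that was called changed direction in any alternative run. For BBR+OA against OA, 2 members were lower with no filter. Leaving out a library gave 0 to 3 higher and 0 to 3 lower there, 13 to 18 higher and 4 to 5 lower for OA against control, 0 to 1 higher and 18 to 20 lower for BBR+OA against BBR, and 1 to 3 higher and 15 to 18 lower for the interaction. With upper quartile scaling 0 members were higher in BBR+OA against BBR. The cause of these shifts was not tested, beyond the smaller number of libraries in the fits that left 1 out.

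Libraries with the same replicate number deviated together only weakly, with correlations from 0.0234 to 0.155 that were not all above 0.1, so the numbers were not taken as pairs. Within the comparisons of 2 groups, each library correlated best with the other group's library of its own number, with 1 exception in BBR+OA against OA, which is a hint from the data and not from the design, and replicate 1 was the lowest library of its group for 9 to 12 of the 12 HIF targets. With the replicate number as a block, 6 members were higher and 4 lower in BBR+OA against OA, where the fit without it had 3 and 1. The members gained were P4ha2 (adjusted p = 0.00457), Bnip3 (0.00608) and Ndrg1 (0.0322), which were higher, and Hk1 (0.00974), Ankrd37 (0.0162) and Eno1 (0.0408), which were lower. No other count of members moved by more than 1.5 times.

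With 3 libraries a group, members as low as Pfkfb4 had a wide error (SE 0.23 to 0.31 where OA was compared with BBR+OA or BBR with BBR+OA), and a difference that missed the threshold is not shown to be absent. Reads shared with near-identical copies cannot be reassigned from counts.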
